A study of Mus musculus with 2 samples.

Results

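The genes described here are 7 receptor genes of natural killer (NK) cells, Ncr1, Klrk1, Klrb1c, Klre1, Klra7, Klrc2 and Il2rb, taken by name from the 2000 genes with deposited values. All 7 were found. NK cells are innate lymphocytes that kill tumor cells and virus-infected cells, and they decide whether to kill by adding up signals from activating and inhibitory surface receptors. Most of the genes belong to the killer cell lectin-like receptor families of the NK gene complex, and the cytokines IL-2 and IL-15 keep the cells alive and active. In tumors some of the same receptors are also carried by activated CD8 T cells and by unconventional T cells, so none of them marks NK cells alone.

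The data were single-cell RNA profiles of whole mouse pancreatic tumors, 14 days after implantation of MT4, an organoid line of KPC pancreatic adenocarcinoma. The Ahr cKO library came from pooled tumors of 3 mice with floxed Ahr alleles and LysM-Cre, a Cre driver of the myeloid lineage and not of NK cells. The Ahr fl/fl library came from pooled tumors of 3 mice with the floxed alleles alone. Both libraries were of the C57/BL6 strain per the labels, held sorted live cells, and had 4577 cKO cells and 5196 fl/fl cells. The study compared tumors of mice with and without Ahr in myeloid cells. With 1 library per genotype, no difference between genotypes has a replicate check, and no test was made.

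Each value is a scaled score, the distance of a cell from the mean of that gene over cells in SDs, limited to at most 10. How many molecules were counted per cell is unknown. In the fl/fl library each gene has a lowest value shared by many cells, its zero level. Across fl/fl cells the median number of genes above zero was 107 of 2000. The cKO library does not keep this level: for the median gene 56.8% of its cells sit at it and 14.9% fall beneath it, so shares above zero are given for the fl/fl library only. Scaled values do not rank genes by expression, and a share of cells above zero depends on the depth as well as on the level. Every interval in brackets is an exact 95% interval (Clopper-Pearson) for counting error only.

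The libraries shared 656 cell barcodes, 14.3% of the cKO cells and 12.6% of the fl/fl cells. Pairs of cells with the same barcode had a median correlation over genes of 0.431, against 0.0712 for pairs with different barcodes. Among NK-like cells 4 cKO and 4 fl/fl cells had such a barcode. Cluster 0, led by Vim, Atf3 and Cd14, held 357 of its 362 cKO cells and 353 of its 372 fl/fl cells with one. Results are therefore also given without these cells where they touch them. The targeted gene Ahr had a mean scaled value of 0.22 in cKO and 0.10 in fl/fl Macrophage-like cells, and of 0.02 in cKO and 0.05 in fl/fl NK-like cells. Which part of Ahr was deleted and which part of the transcript was read are not given in the sources used here, so these values do not check the genotype labels.

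Cells were clustered without the 7 genes. The cluster named NK-like (cluster 8) held 104 cKO cells and 121 fl/fl cells, and all 15 NK markers used for its name were among the 2000 genes. The other population described in depth is cluster 9, with 113 cKO and 140 fl/fl cells, which carried markers of T cells and of NK cells and received no name. The T cell-like class held 764 cKO and 672 fl/fl cells in clusters 15 (led by Lef1 and Tcf7), 17 (led by the proliferation genes Hmgb2 and Top2a beside Cd8a) and 18 (led by Cd3g, Cxcr6 and Nkg7, with Lag3 and Pdcd1).

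In the GENCODE annotation of GRCm38, 5 of the genes lie close together on chromosome 6, in the NK gene complex. They are Klrb1c at chr6:128778485-128789215 on the minus strand, Klre1 at chr6:129577905-129585827 on the plus strand, Klrk1 at chr6:129610323-129623864 on the minus strand, Klrc2 at chr6:129647496-129660689 on the minus strand and Klra7 at chr6:130218605-130233322 on the minus strand. Ncr1 is on the plus strand at chr7:4337724-4345164, and Il2rb is on the minus strand at chr15:78479256-78495271. Klrb1c overlaps the gene Gm44511 on the same strand, and Klra7 and Klrc2 have near-identical relatives, so part of their reads may have been split or lost in counting.

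The start regions of 5 genes are shown because all of them hold the core letters of the RUNX motif, TGTGGT or ACCACA on the other strand, within the bases before the start site. RUNX proteins are transcription factors of NK and T cells. RefSeq start windows (GRCm38.p6, 250 bases before to 50 after the start) were found for 6 of the 7 genes, in 10 windows. The letters were found in 7 of the 10 windows and 5 of the 6 genes. Among all windows of the same length 16.8% held them, and 18.9% of 27025 genes did. The windows are not separate, because those of Ncr1 overlap and hold the same sites, and so do those of Klrc2. The genes were few and the motifs were chosen after part of the sequences had been seen, so the counts are a description. The letters AGGTGTGA of the T-box motif and CCGGAA of the ETS motif, searched on both strands, were in 0 of the 6 genes, against 1.48% and 16.7% of all genes. No motif match overlapped another in these windows. The Klra7 windows and the second Klre1 window held none of these letters. Each sequence is the 250 bases before the start, 5′ to 3′ in the direction of the gene, with the RUNX letters in capitals: Ncr1 at chr7:4337465-4337714 (plus strand), Klrk1 at chr6:129623865-129624114, Klrb1c at chr6:128788642-128788891 and Klrc2 at chr6:129660597-129660846 (minus strand), and Klre1 at chr6:129577963-129578212 (plus strand).
Ncr1: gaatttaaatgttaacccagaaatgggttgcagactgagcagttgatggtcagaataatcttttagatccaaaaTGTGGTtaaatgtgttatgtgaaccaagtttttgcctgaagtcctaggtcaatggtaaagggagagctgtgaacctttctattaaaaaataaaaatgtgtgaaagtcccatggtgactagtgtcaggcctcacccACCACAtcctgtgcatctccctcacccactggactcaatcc
Klrk1: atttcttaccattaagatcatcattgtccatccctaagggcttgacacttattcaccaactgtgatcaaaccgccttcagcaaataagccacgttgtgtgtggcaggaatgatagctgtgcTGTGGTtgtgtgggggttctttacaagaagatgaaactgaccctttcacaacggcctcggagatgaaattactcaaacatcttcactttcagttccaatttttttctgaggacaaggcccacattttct
Klrb1c: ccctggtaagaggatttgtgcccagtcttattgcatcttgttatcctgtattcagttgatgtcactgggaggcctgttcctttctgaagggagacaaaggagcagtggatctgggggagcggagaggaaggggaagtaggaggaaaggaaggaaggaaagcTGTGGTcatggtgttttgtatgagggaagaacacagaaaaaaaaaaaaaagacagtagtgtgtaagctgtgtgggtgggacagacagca
Klre1: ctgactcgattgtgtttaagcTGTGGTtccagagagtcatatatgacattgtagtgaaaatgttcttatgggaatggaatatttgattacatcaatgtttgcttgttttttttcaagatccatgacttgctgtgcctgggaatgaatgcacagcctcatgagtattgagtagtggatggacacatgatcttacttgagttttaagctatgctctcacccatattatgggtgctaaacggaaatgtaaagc
Klrc2: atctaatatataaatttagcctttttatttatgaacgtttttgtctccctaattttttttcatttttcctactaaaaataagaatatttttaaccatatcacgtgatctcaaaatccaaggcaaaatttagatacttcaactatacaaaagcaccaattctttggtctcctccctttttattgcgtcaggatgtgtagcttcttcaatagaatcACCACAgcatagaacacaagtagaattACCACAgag
The letters begin 176 and 41 bases before the start in Ncr1, 129 in Klrk1, 89 in Klrb1c, 229 in Klre1, and 36 and 9 in Klrc2. A match is a description of the sequence and was not tested for binding.

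All 7 genes had their highest share of fl/fl cells above zero in NK-like cells, among the 23 clusters with at least 50 fl/fl cells. Ncr1, which encodes the activating receptor NKp46, was the gene most restricted to them by cells above zero: 63.6% (54.4 to 72.2) of 121 NK-like fl/fl cells were above zero, and the next cluster, cluster 9, had 5.71% (2.50 to 10.9). Of the 108 fl/fl cells above zero for Ncr1 anywhere, 77 (71.3%) were NK-like. Klrb1c, which encodes the antigen NK1.1 of mouse NK cells, was above zero in 52.1% (42.8 to 61.2) of NK-like and 14.3% (8.95 to 21.2) of cluster 9 cells, and 63 of its 105 positive fl/fl cells were NK-like. Among fl/fl cells at least 3 SD above the zero level the order was the other way, with 75.4% of 65 cells NK-like for Klrb1c and 71.1% of 83 for Ncr1. In the T cell-like class 1.04% of 672 fl/fl cells were above zero for Ncr1, and the same share for Klrb1c.

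**Figure D1:**
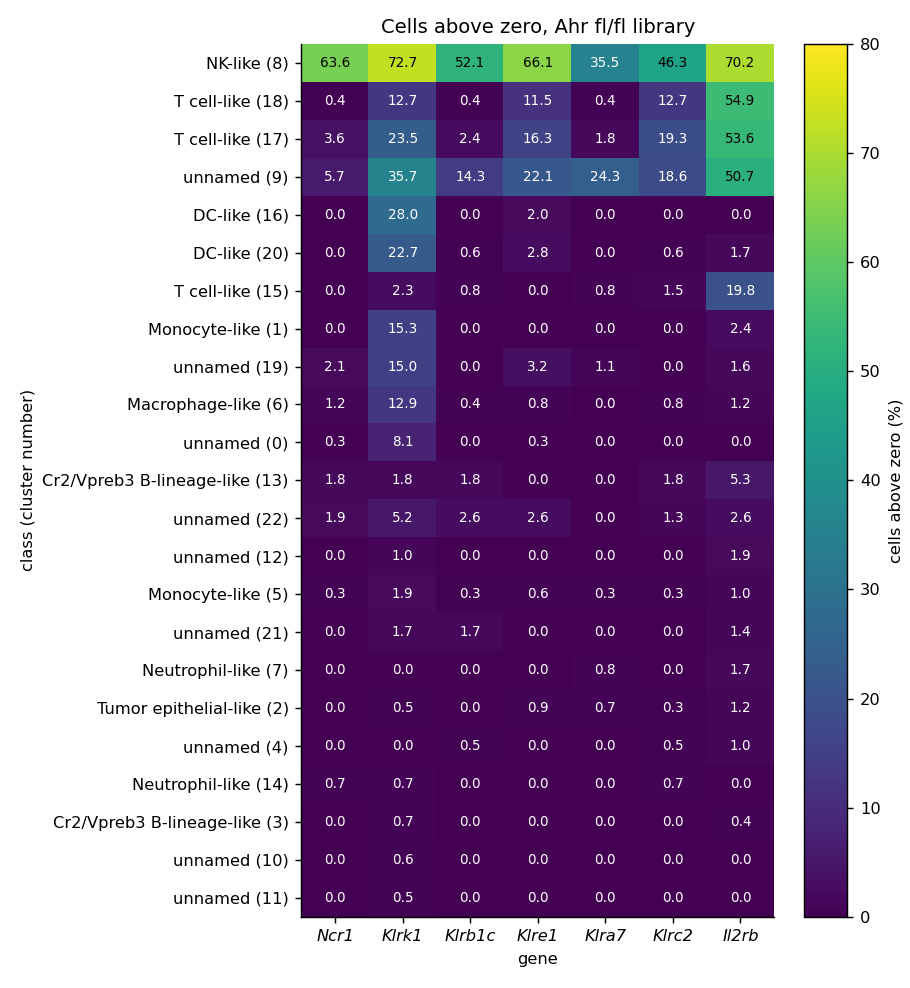
Share of Ahr fl/fl cells above zero (%, colour and printed value) for each receptor gene (columns) in the 23 clusters with at least 50 fl/fl cells (rows, class with cluster number). The top row is the NK-like cluster, where every gene is highest, from 35.5% for Klra7 to 72.7% for Klrk1, and Klrk1 also extends down to the DC-like clusters (14 of 50 and 41 of 181 cells).

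The lectin-like receptors differed in how far they reached into T cells. Klre1 encodes a receptor that pairs with the KLRI proteins. It was above zero in 66.1% (80 of 121) of NK-like fl/fl cells, 22.1% of cluster 9 cells and 8.18% of T cell-like cells. Klrc2, which encodes NKG2C, the activating partner of CD94, was above zero in 46.3% (37.2 to 55.6) of NK-like cells. Next were cluster 17 with 19.3% (13.6 to 26.1) and cluster 9 with 18.6% (12.5 to 26.0), whose intervals overlap, and then cluster 18 with 12.7%, and 41.4% of the 162 fl/fl cells above zero for Klrc2 were T cell-like. Klra7, which encodes the inhibitory MHC class I receptor Ly49G, was above zero in 35.5% (27.0 to 44.8) of NK-like and 24.3% (17.4 to 32.2) of cluster 9 cells, and these intervals overlap. In the T cell-like class it was above zero in 0.893% of cells, and of its 91 positive fl/fl cells 43 were NK-like and 34 were in cluster 9, which left few elsewhere.

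Il2rb, the beta chain shared by the IL-2 and IL-15 receptors, was the broadest of the genes in lymphocytes. It was above zero in 70.2% (61.3 to 78.2) of NK-like fl/fl cells, 54.9% (48.4 to 61.3) of cluster 18, 53.6% (45.7 to 61.4) of cluster 17, 50.7% (42.1 to 59.3) of cluster 9 and 19.8% (15.2 to 25.2) of cluster 15, the T cell cluster led by Lef1 and Tcf7. The intervals of clusters 18, 17 and 9 overlap, and cluster 15 lies below all of them. Because T cells were more numerous, 275 of the 473 fl/fl cells above zero for Il2rb (58.1%) were T cell-like and 85 were NK-like. Among cells above zero the median distance from the zero level was 4.23 SD in NK-like and 1.83 SD in T cell-like cells.

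Klrk1, which encodes the activating receptor NKG2D for stress-induced ligands, was the gene found most widely outside NK-like cells, cluster 9 and T cell-like cells. Of its 405 positive fl/fl cells 191 (47.2%) lay outside these populations, 5 of them in the Cr2/Vpreb3 B-lineage-like class. Among the 139 fl/fl cells at least 3 SD above the zero level 37 (26.6%) did. Klrk1 was above zero in 72.7% (63.9 to 80.4) of NK-like fl/fl cells, with a median distance from the zero level of 4.35 SD among those cells. In DC-like cells, which are dendritic cells by their markers, 55 of 231 fl/fl cells (23.8%, 18.5 to 29.8) were above zero, with a median of 0.73 SD, and in Macrophage-like cells 33 of 256 were (12.9%, 9.04 to 17.6), with a median of 0.45 SD. Other myeloid cells varied by cluster. Of the Monocyte-like cells 19 of 400 were above zero (4.75%, 2.88 to 7.32). These were 6 of 315 (1.90%) in Monocyte-like cluster 5 and 13 of 85 (15.3%, 8.40 to 24.7) in Monocyte-like cluster 1. The unnamed cluster 21, led by Arg1 and Fn1, had 5 of 293 cells above zero (1.71%, 0.556 to 3.94). Its median number of genes above zero was 147. In the unnamed clusters 19 and 0, 28 of 187 and 30 of 372 cells were above zero for Klrk1. Neutrophil-like and Tumor epithelial-like cells had 0.504% and 0.512%, and their intervals (0.0611 to 1.81 and 0.106 to 1.49) lie below those of the DC-like and Macrophage-like cells. The median number of genes above zero was 126 in DC-like and 134.5 in Macrophage-like cells, against 75 in Neutrophil-like and 195 in Tumor epithelial-like cells.

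The DC-like cells with Klrk1 seldom carried the other receptors: 7 of the 55 (12.7%) were above zero for another of the 7 genes, and 4 had a CD3 gene. In NK-like cells 85 of the 88 cells with Klrk1 (96.6%) had another of the genes. The share in DC-like cells was 23.1% without the shared barcodes. In cluster 1, a Monocyte-like cluster led by the interferon-induced genes Cxcl10 and Isg15, it was 15.3% with and 8.70% without them, and in cluster 19, led by H2-DMb1 and Cd209a, it was above zero in 28 of 187 cells with them and in 16 of 154 (10.4%) without. In cluster 0 it was 8.06% with them, and of the 19 fl/fl cells left there without them 0 were above zero, which allows a share of up to 15.8%. The mean scaled value of Klrk1 in DC-like cells was 0.10 in cKO and 0.10 in fl/fl cells, a difference of -0.01 before rounding of the means.

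**Figure D2:**
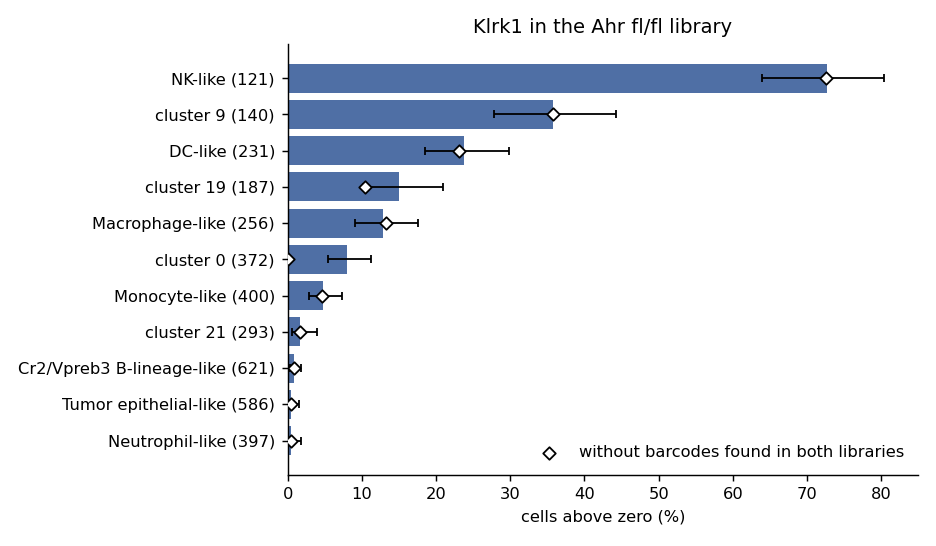
Share of Ahr fl/fl cells above zero for Klrk1 (%, bars, with exact 95% intervals for counting error) in 11 populations, with the number of cells in brackets. Diamonds give the share without barcodes found in both libraries. DC-like cells (23.8%) and Macrophage-like cells (12.9%) stand between NK-like cells (72.7%) and Neutrophil-like cells (0.504%).

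Most NK-like fl/fl cells had several of the genes above zero, and few had all of them. The median cell had 4 of the 7 genes above zero (mean 4.07), 77 of 121 cells (63.6%, 54.4 to 72.2) had at least 4, 9 cells had all 7, and 4 cells had none. In cluster 9 the median was 1 and 26 of 140 cells (18.6%, 12.5 to 26.0) had at least 4. Cluster 17, the proliferating T cell-like cells, had 13 of 166 cells (7.83%, 4.24 to 13.0) with at least 4, cluster 18 had 4 of 244 and cluster 15 had 0 of 262, which allows a share of up to 1.40% by the interval. Of the 4263 fl/fl cells in all other clusters, 6 had at least 4.

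The number of receptors moved with the number of genes detected. NK-like fl/fl cells with at least 4 of the genes had a median of 124 other genes above zero, against 56 in those with fewer, and the part of depth in the count was not tested. Over NK-like cells the 21 pairs of genes had Pearson correlations from -0.19 to 0.27 in the cKO library and from -0.12 to 0.26 in the fl/fl library, with a median of 0.06 in each. These describe 104 and 121 cells that share a library and differ in depth. With so many zeros, correlations of this size are not read as links between the genes.

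**Figure D3:**
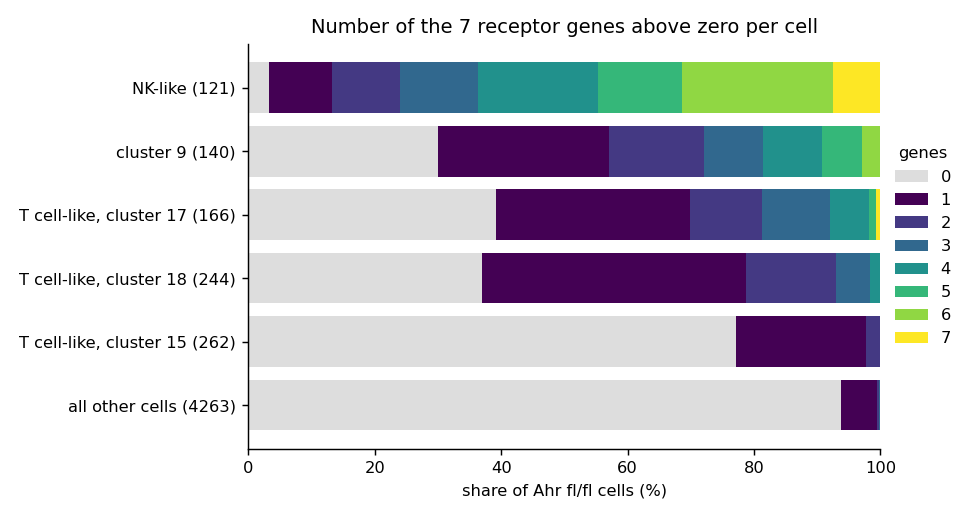
Share of Ahr fl/fl cells (%) by the number of the 7 receptor genes above zero (colours, 0 to 7), for NK-like cells, cluster 9, the 3 T cell-like clusters and all other cells, with cell numbers in brackets. At least 4 genes were above zero in 63.6% of NK-like cells, 18.6% of cluster 9 cells and 0.141% of the other cells.

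Most cluster 9 cells had a gene of the CD3 complex, and most NK-like cells had none. Only the 7 receptor genes were left out of the clustering, so the other genes helped to separate these clusters. The CD3 genes, Trac, Trbc1, Trbc2, Cd4, Cd8a and Cd8b1 were also T cell markers used for naming. The contrasts in these genes therefore describe the clusters and do not test them. Any of Cd3d, Cd3e and Cd3g, the CD3 chains, was above zero in 125 of 140 fl/fl cells of cluster 9 (89.3%). In NK-like fl/fl cells it was 19 of 121 (15.7%). Of the cluster 9 cells with Klra7, 30 of 34 also had a CD3 gene, and of those with Klrk1, 46 of 50, but of those with Ncr1, 4 of 8. Genes of the T cell receptor chains differed in how far they separated the populations. Trbc1 was above zero in 52.1% of NK-like and 47.1% of cluster 9 cells, and Trdc in 19.8% and 9.29%. Trbc2 was above zero in 32.2% of NK-like and 75.7% of cluster 9 cells, and Trac in 2.48% and 50.7%. The single CD3 genes were above zero in 6.61% (Cd3d), 1.65% (Cd3e) and 11.6% (Cd3g) of NK-like cells. Cd4 was above zero in 0 of the 140 cells, with an upper bound of 2.60%. Cd8a was above zero in 31.4% (23.9 to 39.8), Cd8b1 in 31.4%, and Ikzf2, which encodes the transcription factor Helios, in 41.4%, against 6.61% for Ikzf2 in NK-like cells.

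Members of the Ly49 family, the MHC class I receptors of mouse NK cells, were found in both populations, except that Klra8 and Klra4 were near absent from cluster 9. Klra8 was above zero in 33.9% (25.5 to 43.0) of NK-like fl/fl cells and in 0 of 140 cluster 9 cells, and Klra4 in 41.3% and 0.714%. Klra9 was above zero in 32.2% of NK-like and 10.7% of cluster 9 cells, and Klra3 in 25.6% and 7.86%. Klra6 had 14.3% (8.95 to 21.2) of cluster 9 and 4.13% (1.36 to 9.38) of NK-like cells, whose intervals overlap. Klra1 was above zero in 35 of 140 cluster 9 and 21 of 121 NK-like cells, and these intervals (18.1 to 33.0 and 11.1 to 25.3) overlap too. The cytotoxic genes Gzma and Prf1 were above zero in 82.6% and 62.0% of NK-like cells and in 10.7% and 12.9% of cluster 9 cells. Klrd1, the CD94 partner of NKG2C, was common in both, with 73.6% and 63.6%. The Klra genes are similar in sequence, so how reads were divided among them is uncertain. All genes of this paragraph took part in the clustering. Klrd1, Gzma, Klra1, Klra3, Klra4, Klra8 and Klra9 were also NK markers used for naming, so their contrasts do not test the cluster names.

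The genes whose mean scaled value over the 23 clusters of the fl/fl library was most like that of each receptor were found by Pearson correlation. Eomes, an NK and CD8 T cell transcription factor, was among the 3 most alike for Klre1 (0.998), Klrc2 (0.988), Klrk1 (0.983) and Klra7 (0.956), and Klra9 for Klrb1c (0.996), Klre1 (0.991), Klrk1 (0.982), Klrc2 (0.968) and Klra7 (0.956). Ncr1 was most like Phactr3 (0.998), Klrb1a (0.998) and Serpinb9b (0.997), and Il2rb was most like Ctla2a (0.982), Sytl3 (0.967) and AC163354.1 (0.963). The points share 1 library and its depth. Eomes, Klra1, Klra9 and Serpinb9b were also NK markers used to name the NK-like cluster. Without the NK-like cluster Ncr1 with Serpinb9b was 0.667 over 22 clusters, while Il2rb with Ctla2a was 0.960. Klra7 with Klra1 was 0.941 with that cluster and 0.999 without it. Klra7 was then above zero in 24.3% of cluster 9 fl/fl cells and in 1.81% of the next cluster. The value of 0.999 therefore rests largely on cluster 9 and says little about the other clusters.

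NK-like cells made up 2.27% (1.86 to 2.75) of the cKO library and 2.33% (1.94 to 2.78) of the fl/fl library, and 2.55% and 2.58% without the shared barcodes. These shares overlap within counting error, and fewer cells of one type cannot be told apart from more of another in shares of a whole. Cluster 9 made up 2.47% of the cKO and 2.69% of the fl/fl library.

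In NK-like cells the mean of 6 of the 7 genes was at least 0.1 SD higher in the cKO library and that of 1 gene was at least 0.1 SD lower. Over all 2000 genes 8.20% were higher and 8.05% lower by the same rule, and among the 476 genes above zero in at least 5% of NK-like fl/fl cells 24.8% were higher and 19.5% lower. The median difference of the 7 genes was 0.48 SD, and that of the 476 genes was 0.00. The SD over cells was between 2.49 and 3.95 for each gene in each library, and the values of the 2 libraries overlapped for each gene. The limit of 0.1 is small beside this spread, so passing it in either direction says little about a single gene. The spread of the 476 genes was not matched to that of the 7, so their shares are a rough background only.

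Klrb1c had the largest difference of the 7. Its mean was 4.73 in 104 cKO cells (SD 3.54) and 3.12 in 121 fl/fl cells (SD 3.84), a difference of 1.61 SD. The 25th percentile, median and 75th percentile of its distance from the fl/fl zero level were 0.98, 4.90 and 8.12 in cKO cells, and 0.00, 1.63 and 6.68 in fl/fl cells. At least 3 SD above the zero level were 63.5% (53.4 to 72.7) of cKO and 40.5% (31.7 to 49.8) of fl/fl NK-like cells. These intervals cover the counting of cells within 1 library each and say nothing of the spread between mice, and the cutoff is set from the fl/fl zero level, which the cKO values do not keep.

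The other genes had smaller differences. Klrc2 averaged 2.92 in cKO and 2.28 in fl/fl cells (difference 0.64), Klrk1 3.94 and 3.42 (0.52), and Il2rb 3.27 and 2.78 (0.48). Klre1 averaged 3.79 in cKO and 3.55 in fl/fl cells (0.23), and Klra7 2.49 and 2.33 (0.16). Ncr1 was the 1 gene with a lower mean, 3.69 in cKO and 3.87 in fl/fl cells (-0.18), although 52.9% (42.8 to 62.8) of cKO and 48.8% (39.6 to 58.0) of fl/fl cells were at least 3 SD above its zero level. The difference of Ncr1 was under 0.1 in size in 7 alternatives, and Klre1 and Klra7 changed sign in some. Without the shared barcodes 5 of the 7 genes were higher, Klra7 being just under the limit, with Klrk1 at 0.62 and Il2rb at 0.35.

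The cKO values did not keep the fl/fl zero level in NK-like cells, and lay on both sides of it. The 25th percentile of Klrk1 was 2.13 SD above it in cKO cells and at 0.00 in fl/fl cells, and that of Il2rb was 1.65 and 0.00. Each of the 7 genes also had cKO cells below the level, where no fl/fl NK-like cell lies: the lowest cKO value was -2.77 SD from it for Klrc2, -2.40 for Klra7, -1.92 for Ncr1, -1.17 for Klre1, -0.83 for Klrk1, -0.34 for Klrb1c and -0.07 for Il2rb. Such cells were 21.2% of the cKO NK-like cells for Klra7 and 17.3% for Ncr1. A shift of the cKO values and a change in expression cannot be told apart in these means. An estimate with the shift taken out could be made for Klra7 alone in this class, and it was 0.01 in the first form and -0.18 in the second, against 0.16 as deposited.

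**Figure D4:**
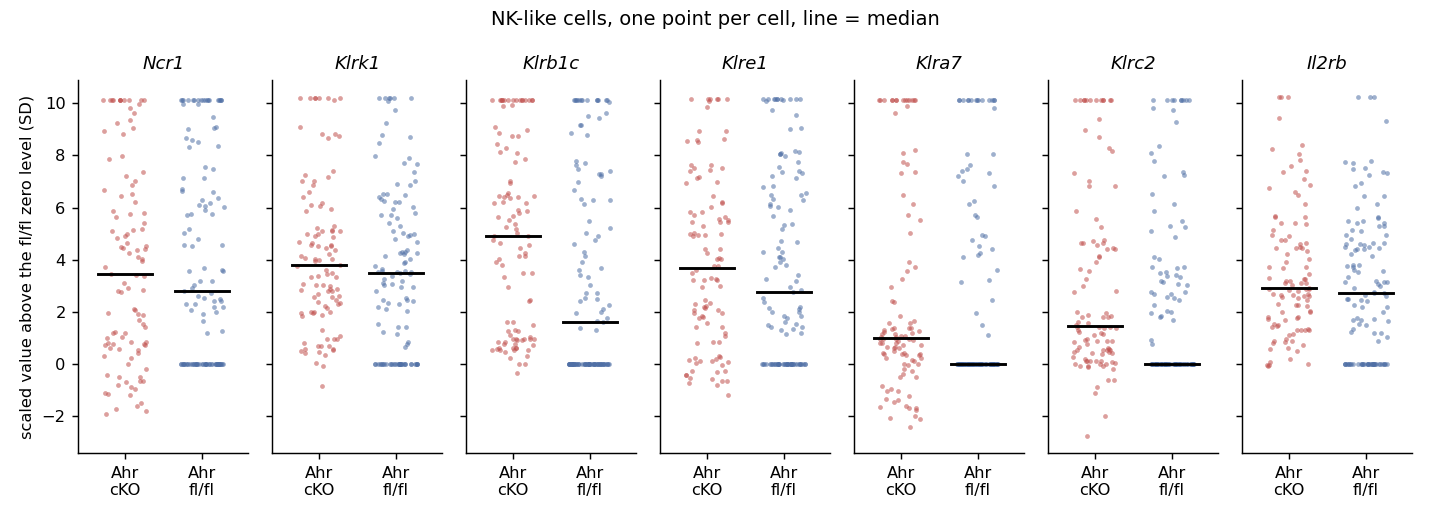
Scaled value above the fl/fl zero level (SD) of each NK-like cell (points, spread sideways at random) in the Ahr cKO library (left, 104 cells) and the Ahr fl/fl library (right, 121 cells) for the 7 genes, with the median as a line. Fl/fl cells without the gene stack at 0, while cKO cells spread around it, and the medians of Klrb1c are 4.90 and 1.63.

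In cluster 9 more of the genes were lower than higher in the cKO library. There 4 of the 7 genes were at least 0.1 SD lower in the cKO library and 1 was higher, against 6.75% lower and 7.95% higher of all 2000 genes, and 17.3% lower and 19.3% higher of the 514 genes above zero in at least 5% of its fl/fl cells. Klre1 averaged 0.47 in cKO and 0.76 in fl/fl cells, a difference of -0.29, or -0.35 and -0.34 in the 2 forms with the shift removed. Klrk1 differed by -0.21 (-0.31 and -0.27), and Klra7 by -0.11 (-0.51 and -0.42). Klrb1c was the gene higher in cKO cells of cluster 9 too, 0.84 against 0.44 in fl/fl cells, a difference of 0.40 (0.24 and 0.27). The shift removal changed cKO values only, and each gene with an estimate in cluster 9 came out lower than as deposited. Whether the removal also took off expression was not tested. At least 3 SD above the zero level were 12.4% (6.94 to 19.9) of cKO and 5.71% (2.50 to 10.9) of fl/fl cells for Klrb1c, which overlap. The gamma delta T and NKT cell list also holds the CD3 genes and Trac, which other T cells carry. Of its 10 measured genes 6 were at least 0.1 SD higher in cKO cells of cluster 9 and 0 were lower. Cd3e, at 0.12, was 1 of the 6. Trdc averaged 1.69 in cKO and 0.73 in fl/fl cells (0.96), Tcrg-C2 1.10 and 0.58 (0.52), and Cd163l1 0.33 and -0.04 (0.37). These are deposited values, with no shift removed. Gamma delta T cells were not identified within cluster 9, and any link of these genes to its receptor differences was not tested.

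In T cell-like cells 2 of the 7 genes were at least 0.1 SD lower in the cKO library and 0 were higher, against 10.3% lower and 2.75% higher of all genes, and 27.6% lower and 5.79% higher of the 656 genes above zero in at least 5% of the class's fl/fl cells. Il2rb averaged 0.54 in cKO and 0.71 in fl/fl cells (-0.17), and Klrc2 averaged 0.04 and 0.19 (-0.15, and -0.16 and -0.19 with the shift removed). The count is of deposited values: Klre1 was -0.05 as deposited, but -0.11 and -0.14 with the shift removed. Within the class Il2rb was -0.08 in cluster 15, -0.10 in cluster 17 and 0.28 in cluster 18. Cluster 15, where Il2rb was low, held 466 of the 764 cKO cells and 262 of the 672 fl/fl cells. The class difference of Il2rb has the opposite sign to that of cluster 18. Klrc2 was low in cluster 15 too, with 1.53% of fl/fl cells above zero, against 19.3% in cluster 17 and 12.7% in cluster 18. The part of the cluster mix in the class differences was not tested.

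**Figure D5:**
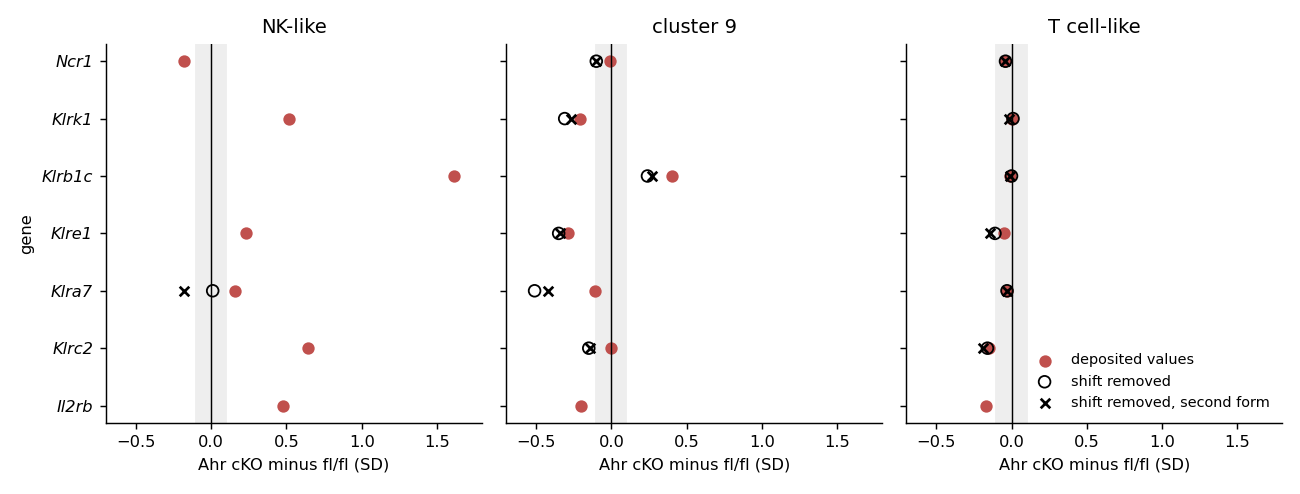
Mean scaled value of Ahr cKO minus Ahr fl/fl cells (SD) for each gene in NK-like cells, cluster 9 and T cell-like cells, as deposited (filled circles) and with the shift removed in 2 forms (open circles and crosses, where it could be estimated). Grey marks differences under 0.1. Klrb1c is highest in NK-like cells (1.61) and cluster 9 (0.40), and in T cell-like cells all points lie between -0.19 and 0.01.

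Other NK genes in the same cells are given from lists. Of 18 measured NK receptor genes other than the 7, 9 were at least 0.1 SD higher and 5 lower in cKO NK-like cells, with a median of 0.09, against the 24.8% and 19.5% of the genes above zero in at least 5% of these cells. The largest were Klrb1b (2.85 in cKO and 1.66 in fl/fl cells, 1.19), Klrb1a (3.33 and 2.31, 1.02), Klrd1 (3.01 and 2.14, 0.86) and Klra5 (-0.60 and 0.14, -0.74), the last above zero in 1.65% of fl/fl cells. Klrb1a, Klrb1b and Klrb1c are neighbouring genes of the family that encodes NK1.1, and Klrb1f of the same family differed by 0.55. In cluster 9, 1 of the 18 was higher and 10 were lower, with a median of -0.17, against 19.3% higher and 17.3% lower of the genes above zero in at least 5% of its cells. In T cell-like cells 0 of the 18 were higher and 3 lower, against 5.79% and 27.6%. That class mixes clusters in unequal parts: cluster 15 held 466 of its 764 cKO cells and 262 of its 672 fl/fl cells. Within clusters 15, 17 and 18, Klrd1 differed by 0.08, 0.04 and 0.18, and Cd160 by -0.11, 0.40 and -0.35. The part of the cluster mix in the count was not tested.

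Of 15 measured cytotoxic effectors and NK cytokines, 5 were higher and 5 lower in cKO NK-like cells, with a median of -0.07. Beside this and the next counts stand the shares of all 2000 genes in NK-like cells, 8.20% higher and 8.05% lower, and of the genes above zero in at least 5% of them, 24.8% and 19.5%. Serpinb9, which protects killer cells from granzyme B, differed by 0.76, the cathepsin Ctsw by 0.45, Serpinb6b by 0.40 and Gzma by -0.35. In T cell-like cells 0 of the 15 were higher and 6 lower, against 5.79% and 27.6% of the genes above zero in at least 5% of those cells. The T cell-like count mixes clusters in unequal parts, so it does not describe each cluster. Within clusters 15, 17 and 18, Nkg7 differed by 0.06, 0.32 and 0.41, and Prf1 by 0.08, 0.30 and 0.26. Xcl1 differed by 0.02, -0.12 and -0.26 there. The part of the cluster mix in the count was not tested. In cluster 9, 2 were higher and 7 lower, against 19.3% and 17.3%. Of 7 measured transcription factors of NK and innate lymphoid cells, 4 were higher and 0 lower in NK-like cells, including Ikzf2 (0.41), Eomes (0.35), Irf8 (0.25) and Id2 (0.16). Of 5 measured genes of the IL-2, IL-12 and IL-18 families 3 were higher and 0 lower, including Il18r1 (0.48), Il7r (0.24) and Socs2 (0.22).

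The lists of circulating mature NK cells and of ILC1, tissue-resident innate lymphocytes that can also carry NK1.1 and NKp46, were compared in NK-like cells, again against 24.8% higher and 19.5% lower of the genes above zero in at least 5% of these cells. All 4 measured genes of the first list were higher, with Cma1 at 3.33 in cKO and 1.89 in fl/fl cells (1.44), Itga2 at 0.51, Cx3cr1 at 0.18 and Ly6c2 at 0.17. Of 7 measured ILC1 genes 3 were higher and 1 lower, with Cxcr6 at 0.31, Il7r at 0.24, Itga1 at 0.22 and Xcl1 at -0.17. Of 10 measured gamma delta T and NKT cell genes 3 were higher and 2 lower, with Tcrg-C4 at 0.46 and Trdc at -0.22. Of 3 measured adaptors 1 was higher, Txk at 0.21, and of 2 measured ligand genes 0 differed by 0.1.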

How the data were processed

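Single-cell libraries of whole tumors, 1 per genotype, each pooled from 3 mice, were sequenced from sorted live cells, per the labels' protocols. The submitters' processing notes name Seurat 3.1.4 and Cell Ranger 3.0.0, and the build GRCm38 (mm10), without saying which step each served. The authors deposited a table of scaled scores, with 2000 genes for each cell, and a table of UMAP coordinates, also a score. A limit of 10 hides differences among the highest cells. Why cKO values lie off the fl/fl zero level, any filter on cells and any doublet removal are not given in the sources used here.

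Cells were assigned to libraries by the suffix of their names. They were clustered from 30 principal components without the 7 genes, with 15 neighbours and Leiden resolution 1 (Python 3.11.15, scikit-learn 1.9.0, scanpy 1.11.5, leidenalg 0.10.2), into 26 clusters. A cluster was named when its best mean marker difference was at least 0.5, the next class was under 0.5 times that, and at least 3 markers were measured. Above zero means over 0.05 above the fl/fl zero level. A difference is the mean of cKO minus the mean of fl/fl cells and was counted from 0.1. The shift was estimated as the 0.3 quantile of a gene over the 30 nearest cKO cells. The second form used 50 neighbours and a quantile of 0.5 times the share of the cluster's fl/fl cells not above zero. The shift was estimated only where the gene was above zero in fewer than 40% of fl/fl cells in each cluster of the class. Both forms were tried on simulated data made from T cell-like fl/fl cells alone, and the outcome is not given here. Their error in NK-like cells and in cluster 9 was not tested. Cells with 3 markers of each of 2 families were possible doublets, 220 in the cKO and 305 in the fl/fl library, and were kept except in 1 alternative. Named genes were the 7, the 3 most similar to each, and up to 4 of each list with the largest difference. Context genes of cluster 9, Ahr, and the Klrk1 populations were chosen after values were seen. The members and lists were chosen with earlier results of these data known. Cells are not replicates, and no test between genotypes was made.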

Additional observations from a re-analysis of the deposited data

How the results depend on the processing

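With 1 library per genotype no replicate could be left out. No paired analysis was possible because each genotype had 1 library. The 7 genes were highest in NK-like cells, and the median was 4 genes per NK-like fl/fl cell, in each of the other clusterings, without possible doublets, without shared barcodes and with the higher limits for above zero. In each of the clusterings, without possible doublets, shared barcodes or cells with a CD3 gene, and with values limited to 5, 5 or 6 genes were counted as higher in cKO NK-like cells. The NK-like share was 2.93% of the cKO and 3.08% of the fl/fl library with all 2000 genes clustered, and 3.08% and 3.21% with 15 components. In these alternatives Ncr1 was above zero in 51.2% (all genes) and 49.7% (15 components) of NK-like fl/fl cells. The number of genes lower in cKO NK-like cells, 1 as reported, was 0 with all genes clustered, at resolution 2 and 0.5, with 15 components, without possible doublets, with values limited to 5, and without NK-like cells that had a CD3 gene. The number lower in T cell-like cells was 1 with values limited to 5.

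The sign of a difference in NK-like cells changed for Ncr1 with values limited to 5 (0.04), for Klre1 with all genes clustered (-0.04), and for Klra7 without possible doublets (-0.02) and in the second form of the shift removal (-0.18). The causes were not tested. The difference of Klrb1c stayed between 1.25 and 1.72 over the alternatives. Leaving out the shared barcodes and leaving out NK-like cells with a CD3 gene were chosen after seeing the data. In that alternative a CD3 gene was counted from 1 SD above its zero level. The shift removal gave no value for the other 6 genes in NK-like cells. Depth in molecules is unknown, so differences in detection between cells could not be corrected.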
